A study of Mus musculus with 72 samples.

Results

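Genes of inhibitory signalling were described in the cortex of amyloid-bearing mice: Gad1 and Gad2, which make the transmitter GABA, Abat, which breaks it down, and Calb2, a calcium-binding protein gene of one class of inhibitory interneuron. They were taken by name from the deposited table, and all 4 of 4 were found among its 1266 genes. The rule is by name and uses no measured value, but the genes were chosen with earlier results of these data known. RNA was measured with 2 NanoString nCounter panels, which count fluorescent barcodes hybridised to a fixed set of transcripts without amplification. The mice were 7.5 months old, 36 in all, with 6 females and 6 males in each of 3 genotypes. The P522R_5xFAD mice carried the P522R variant of the phospholipase gene Plcg2, the M28L_5xFAD mice carried its M28L variant, and the 5xFAD mice carried neither. All mice of the 3 genotypes also carried the 5xFAD transgenes, which are mutant human amyloid precursor protein and presenilin genes that the Thy1 promoter expresses in neurons. Mice without these transgenes were not analysed here, so each comparison is between plaque-bearing mice. How the variants were put into the genome is not given in the labels. Numbers in the labels mark separate animals, except that a pair of M28L_5xFAD females share the number 14 and differ in their index. They were kept as separate mice; entered as their mean, they changed no call for the 4 genes in the genotype comparisons averaged over the sexes.

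GABA is the main inhibitory transmitter of the cortex. It is made from glutamate by the decarboxylases that Gad1 and Gad2 encode, loaded into vesicles by the transporter of Slc32a1, cleared from the synapse by uptake, and degraded in mitochondria by the transaminase that Abat encodes, in neurons and in astrocytes. Cortical interneurons fall into classes that are told apart by calcium-binding proteins and peptides, among them parvalbumin, calretinin (the product of Calb2) and vasoactive intestinal peptide.

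The promoters of the pair of synthesis genes are shown because these genes moved together below. The RefSeq table of build GRCm38.p6 holds 250 bases before to 50 bases after the start of each gene, and 2 of the 4 genes, Gad1 and Gad2, matched it. Both lie on the plus strand of chromosome 2, Gad1 at chr2:70561879-70562178 and Gad2 at chr2:22622077-22622376. Capitals mark matches on either strand to the TATA box TATAAA, the CCAAT box CCAAT, the GC box GGGCGG, the EGR motif GCGNGGGCG and the cyclic AMP response element TGACGTCA.
Gad1: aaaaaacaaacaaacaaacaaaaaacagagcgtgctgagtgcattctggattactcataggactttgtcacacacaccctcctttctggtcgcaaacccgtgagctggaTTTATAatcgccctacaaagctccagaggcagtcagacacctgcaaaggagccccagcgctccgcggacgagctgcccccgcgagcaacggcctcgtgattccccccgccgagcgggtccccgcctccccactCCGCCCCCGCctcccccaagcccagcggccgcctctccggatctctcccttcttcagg
Gad2: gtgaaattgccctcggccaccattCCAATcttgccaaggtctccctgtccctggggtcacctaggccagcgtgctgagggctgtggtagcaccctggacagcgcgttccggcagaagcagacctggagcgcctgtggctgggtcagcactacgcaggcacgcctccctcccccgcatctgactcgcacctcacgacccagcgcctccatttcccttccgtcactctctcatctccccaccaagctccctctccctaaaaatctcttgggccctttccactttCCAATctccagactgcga
Gad1 held 1 TATA box and 1 GC box that overlapped 1 EGR motif, and no CCAAT box. Gad2 held 2 CCAAT boxes and none of those 3. Neither window held the cyclic AMP response element, and each held 1 E-box (CANNTG, not in capitals). No capitalised motif was thus shared by the pair. Of 32851 promoters of this length in the table, 13.62% held the TATA box, 35.66% the GC box, 5.55% the EGR motif, 37.41% the CCAAT box, 72.31% the E-box and 1.79% the response element. Bases G and C made up 60.0% of the Gad1 window and 61.33% of the Gad2 window, against a median of 52.67%.

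Values are given as normalized counts, the deposited log2 values turned back to the linear scale. Differences are on the log2 scale with their standard error, and a gene is called where its limma p-value is under 0.05 after Benjamini-Hochberg adjustment across the 1266 genes. The count steps in the values split the genes into a panel of 757, which holds Gad1 and Gad2, and a panel of 509, which holds Abat and Calb2. Between 237563 and 1957325 counts were recovered for a mouse on a panel, and every M28L_5xFAD and 5xFAD female had fewer than every male of the same genotype on both panels. Neuronal genes were detected: each of the 16 measured glutamatergic and 10 general neuronal genes reached 20 normalized counts in some mouse of every group. In tissue RNA, fewer cells of a type and less RNA per cell cannot be told apart. The P522R_5xFAD and M28L_5xFAD groups were both set against the same 5xFAD mice, so these comparisons share their controls. The labels name no run or batch, and a run shared by the mice of a genotype or a sex cannot be told apart from that genotype or sex.

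Gad1 and Gad2, the genes of GABA synthesis, were higher in P522R_5xFAD mice than in 5xFAD mice, 1.44-fold and 1.40-fold, in females and males alike. In M28L_5xFAD mice both were within 0.03 of 5xFAD mice on the log2 scale. Abat, the gene of GABA breakdown, was lower in P522R_5xFAD males alone among the within-sex comparisons with 5xFAD mice. Calb2 moved in opposite directions with the variants, lower in P522R_5xFAD mice and higher in M28L_5xFAD mice. All 4 genes were thus called in P522R_5xFAD against 5xFAD, where 65.4% of all genes were called, and 1 of 4, Calb2, in M28L_5xFAD against 5xFAD, where 10.3% were. A count of 4 of 4 has to be read against that background: most genes on these panels differed in P522R_5xFAD mice.

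**Figure D1:**
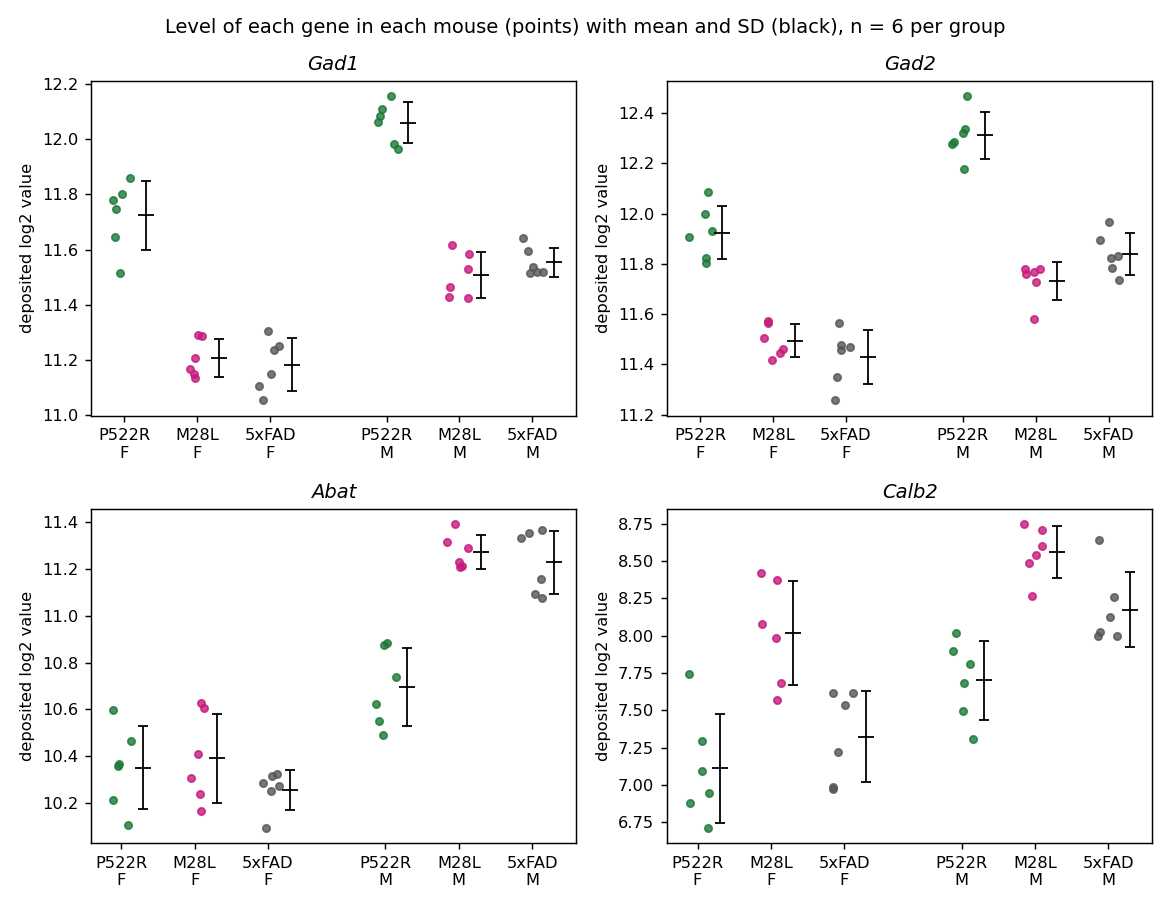
Deposited log2 value of Gad1, Gad2, Abat and Calb2 in each of 36 mice, by genotype within females (F) and males (M). Points are mice and black bars are the mean and SD of 6 mice. P522R_5xFAD mice sit above the other genotypes of their sex for Gad1 and Gad2, P522R_5xFAD males sit below the other males for Abat, and M28L_5xFAD mice have the highest mean Calb2 in each sex.

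Gad1 encodes the decarboxylase that supplies most GABA of the cell body. In females it ran over 2927, 3474 and 3719 normalized counts (lowest, median and highest of 6 mice) with P522R, over 2250, 2332 and 2507 with M28L, and over 2124, 2340 and 2530 in 5xFAD mice. In males it ran over 3994, 4308 and 4562 with P522R, over 2745, 2890 and 3143 with M28L, and over 2926, 2953 and 3196 in 5xFAD mice. Every P522R_5xFAD mouse lay above every M28L_5xFAD and 5xFAD mouse of its sex, while the ranges of the other genotypes overlapped. The log2 difference between P522R_5xFAD and 5xFAD mice was 0.52 ± 0.04 (SE, n = 12 each, limma adjusted p = 1.58e-13). Of 1266 genes Gad1 had the 3rd smallest p and the 148th highest difference, since its spread within groups was small, with an SD of 0.05 to 0.13 over the 6 groups. The exact permutation test within sex gave p = 2.34e-06, the smallest that 853776 permutations allow.

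Gad2 encodes the decarboxylase found mainly at axon terminals. In females it ran over 3574, 3874 and 4343 normalized counts with P522R, over 2733, 2863 and 3051 with M28L, and over 2447, 2822 and 3027 in 5xFAD mice. In males it ran over 4635, 5053 and 5662 with P522R, over 3062, 3480 and 3514 with M28L, and over 3409, 3634 and 4003 in 5xFAD mice. As for Gad1, no P522R_5xFAD mouse overlapped the other genotypes of its sex. The log2 difference between P522R_5xFAD and 5xFAD mice was 0.48 ± 0.04 (SE, n = 12 each, limma adjusted p = 1.2e-12), the 10th smallest p and the 172nd highest difference.

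The rise of both synthesis genes in P522R_5xFAD over 5xFAD mice was of like size in each sex. Against 5xFAD mice, Gad1 differed by 0.54 in females and 0.51 in males and Gad2 by 0.50 in females and 0.47 in males, all called, where 60.2% of genes were called in females and 50.6% in males. The difference between the sexes was 0.04 for Gad1, with a 95% interval of -0.12 to 0.19, and 0.02 for Gad2, with an interval of -0.13 to 0.18; neither was called, where 20.9% of genes were. Against M28L_5xFAD mice the rise was 0.54 for Gad1 (limma adjusted p = 4.75e-14) and 0.50 for Gad2 (adjusted p = 2.38e-13), where 67.6% of genes were called. It was called in each sex for both genes, where 61% of genes were called in females and 50% in males. Gad1 rose by 0.52 in females and 0.55 in males, and Gad2 by 0.43 in females and 0.58 in males. The difference between the sexes was -0.03 for Gad1 and -0.15 for Gad2, with an interval of -0.31 to 0.01 for Gad2. Neither was called, where 23.5% of genes were, but that of Gad2 was called after median centring (-0.24). Between M28L_5xFAD and 5xFAD mice the difference was -0.01 for Gad1, with a 95% interval of -0.09 to 0.07 (limma adjusted p = 0.901), and -0.02 for Gad2, with an interval of -0.10 to 0.06 (adjusted p = 0.816). All 6 M28L_5xFAD males had less Gad2 than the mean of 5xFAD males, by -0.11 on average, which was not called (limma adjusted p = 0.477), though a single-gene exact permutation test gave an unadjusted p = 0.0238. The median over all genes was 0.08 in P522R_5xFAD against 5xFAD, and 0.11 over the panel that holds both genes. Centring the mice on 3 housekeeping genes, Gusb, Tbp and Cltc, moved that median to -0.12 and took the rise to 0.32 for Gad1 and 0.28 for Gad2, both still called. In sum these 3 genes were themselves higher with P522R. The centring used the mean of their log2 values, and the level of each gene alone is not shown here. Their summed level ran from 22719 to 26235 normalized counts in P522R_5xFAD males against 13926 to 16273 in 5xFAD males. In females it ran from 15610 to 21005 against 13521 to 14384. The same centring took the rise over M28L_5xFAD mice to 0.20 for Gad1 and 0.17 for Gad2, both still called over the sexes, but Gad1 in males (0.19, limma adjusted p = 0.0645) and Gad2 in females (0.12, adjusted p = 0.200) were no longer called.

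**Figure D2:**
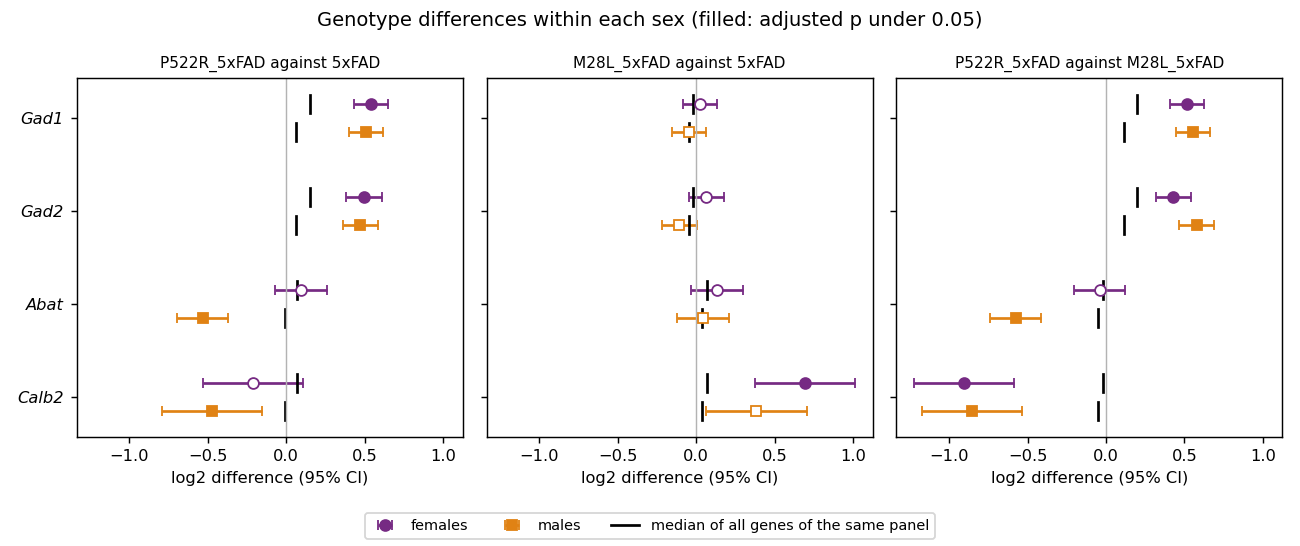
Log2 difference with its 95% interval for each gene in 3 genotype comparisons, in females (circles, upper) and males (squares, lower), filled where the limma adjusted p is under 0.05. Black ticks give the median of all genes of the same panel. Gad1 and Gad2 lie at 0.43 to 0.58 in all comparisons of P522R_5xFAD mice, Abat is below 0 in P522R_5xFAD males but not called in females, and Calb2 is above 0 with M28L.

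Ranked by group mean, both synthesis genes had the same order: P522R_5xFAD males, P522R_5xFAD females, 5xFAD males, M28L_5xFAD males, M28L_5xFAD females and 5xFAD females. The gap between P522R_5xFAD males and females and that between M28L_5xFAD males and females were free of overlap, and the other neighbours in the order overlapped.

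Abat encodes GABA transaminase, which starts the breakdown of GABA. In males it ran over 1440, 1644 and 1891 normalized counts with P522R, over 2361, 2447 and 2684 with M28L, and over 2157, 2426 and 2634 in 5xFAD mice. All 6 P522R_5xFAD males lay below every other male. In females it ran over 1104, 1317 and 1552 with P522R, over 1151, 1314 and 1580 with M28L, and over 1093, 1244 and 1283 in 5xFAD mice, and all genotypes overlapped. In males the log2 difference between P522R_5xFAD and 5xFAD was -0.53 ± 0.08 (SE, n = 6 each, limma adjusted p = 1.34e-06), and in females it was 0.09 ± 0.08 (SE, n = 6 each, adjusted p = 0.316). The difference between the sexes was itself called, 0.63 ± 0.11 (SE, limma adjusted p = 0.000176), the 24th smallest p of 1266. Abat was thus 1 called of the 4 genes, a share near the 20.9% over all genes. Against M28L_5xFAD the same pattern held, with -0.58 in males (limma adjusted p = 2.96e-07), -0.04 in females (adjusted p = 0.671) and 0.54 ± 0.11 between the sexes (SE, adjusted p = 0.000815), where 23.5% of genes were called. Averaged over the sexes Abat was lower in P522R_5xFAD than in 5xFAD mice by -0.22 (limma adjusted p = 0.00111), a mean of sexes that differed. Median centring within each panel took this average to -0.09, not called (adjusted p = 0.184), and the male difference to -0.36, still called. M28L_5xFAD mice differed from 5xFAD mice by 0.09, with a 95% interval of -0.03 to 0.21 (limma adjusted p = 0.376).

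The level of Abat also differed between females and males, and by less with P522R than in the other genotypes. Females were lower than males by -0.34 with P522R, by -0.88 with M28L and by -0.97 in 5xFAD mice. P522R_5xFAD females and males overlapped, and in the other genotypes every female lay below every male. Such separation was not particular to Abat, as Gad1 and Gad2 showed it in every genotype. Of 1266 genes, 871 were called lower in females with P522R, 836 with M28L and 888 in 5xFAD mice. The count totals of the panel that holds Abat were lower in females with M28L and in 5xFAD mice, while with P522R the sexes overlapped. They ran from 404333 to 774198 in females and 259284 to 672936 in males with P522R, from 237563 to 318180 in females and 596476 to 642696 in males with M28L, and from 274013 to 338173 in females and 462536 to 680262 in 5xFAD males. The part of depth in the sex difference of Abat was not tested. The lowest of the P522R_5xFAD males for Abat, mouse 30 at 1440 normalized counts, was also the male with the fewest counts of it, 645. Leaving out any 1 mouse kept the difference between the sexes called, at 0.58 to 0.68 in P522R_5xFAD against 5xFAD.

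Ranked by group mean, Abat was highest in M28L_5xFAD males, followed by 5xFAD males, P522R_5xFAD males, M28L_5xFAD females, P522R_5xFAD females and 5xFAD females. Only the step between 5xFAD males and P522R_5xFAD males was free of overlap.

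Calb2 encodes calretinin and had the fewest counts of the 4 genes, 86 to 438 recovered per mouse. In females it ran over 105, 130.1 and 214 normalized counts with P522R, over 189, 261 and 343 with M28L, and over 126, 167 and 196 in 5xFAD mice. In males it ran over 159, 215 and 259 with P522R, over 308, 380.3 and 430 with M28L, and over 255, 269.7 and 399 in 5xFAD mice. All 12 M28L_5xFAD mice exceeded the 5xFAD mean for their sex, with 5 of 6 females and 2 of 6 males above the highest 5xFAD mouse. The log2 difference between M28L_5xFAD and 5xFAD was 0.54 ± 0.11 (SE, n = 12 each, limma adjusted p = 0.000922), the 16th highest of 1266 genes. It was 0.69 ± 0.16 in females (SE, n = 6 each, limma adjusted p = 0.00969), where 3.87% of genes were called. In males it was 0.38 ± 0.16 (SE, n = 6 each, adjusted p = 0.282), where 2.05% were called and a single-gene exact permutation test gave an unadjusted p = 0.0195. The difference between the sexes, 0.31 with an interval of -0.14 to 0.76, was not called (limma adjusted p = 0.9997); 0% of genes were called in that comparison and 34 of 1266 had an unadjusted p under 0.05. The M28L_5xFAD mice carry index numbers 1 to 3 or 7 to 9 in the labels, and with only the first set of 6 mice the difference was 0.41 (limma adjusted p = 0.0614), with only the second 0.66 (adjusted p = 0.00255). The pair of females numbered 14, 1 from each set, stood at 189 and 331 normalized counts.

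With P522R, Calb2 went the other way. It was lower than in 5xFAD mice by -0.34 ± 0.11 (SE, n = 12 each, limma adjusted p = 0.00769), with 5 of 6 females and 6 of 6 males under the 5xFAD mean of their sex. The male difference of -0.47 was called (limma adjusted p = 0.0125) and the female difference of -0.21 was not (adjusted p = 0.246), and the difference between the sexes, 0.26, was not called either (adjusted p = 0.431). Median centring within each panel left the average at -0.21 (adjusted p = 0.0565) and the male difference at -0.30 (adjusted p = 0.071), neither called. Set directly against M28L_5xFAD mice, Calb2 was lower in P522R_5xFAD mice by -0.88 ± 0.11 (SE, n = 12 each, limma adjusted p = 1.37e-08), the 13th lowest difference of 1266 genes. It was called in females at -0.91 and in males at -0.86, and no P522R_5xFAD male reached the lowest M28L_5xFAD male. This contrast stayed called under the tested scalings, between -1.22 and -0.65. Ranked by group mean, Calb2 was highest in M28L_5xFAD males, followed by 5xFAD males, M28L_5xFAD females, P522R_5xFAD males, 5xFAD females and P522R_5xFAD females, and all neighbours in that order overlapped.

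The other genes of the GABA system, from a list of 58 that included the 4, were measured for 27. In P522R_5xFAD against 5xFAD, 12 rose, 8 fell and 7 were not called, with a median difference of 0.06 against 0.08 over all genes. The share called over all genes was 65.4%. The rises held a glutamine transporter of neurons, Slc38a1, by 0.42, and chloride carriers: Slc12a5, the chloride exporter that makes GABA inhibitory in mature neurons, by 0.73, and Slc12a2, a chloride importer, by 0.52. Averaged over the sexes, the vesicular GABA transporter gene Slc32a1 fell by 0.31 (limma adjusted p = 8.43e-06), opposite to the rise of the synthesis genes. Its mean log2 value was 10.49 in P522R_5xFAD males against 11.04 in 5xFAD males. In females it was 9.96 against 10.03, so the opposite movement was mainly that of males. Slc32a1 ran over 742, 1043 and 1151 normalized counts in females and 1248, 1421 and 1712 in males with P522R, and over 956, 1053 and 1115 in females and 1979, 2072 and 2301 in males of the 5xFAD group. As for Abat, males were apart and females overlapped.

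Of the 9 interneuron markers measured besides Calb2, 5 fell, 2 rose and 2 were not called in P522R_5xFAD against 5xFAD. The share called over all genes was 65.4%, and nothing is read from the count about these markers. The 5 that fell all lie on the panel of Abat and Calb2, as does Nos1, which rose. The parvalbumin gene Pvalb fell by 0.52, and the peptide genes Npy by 0.44 and Vip by 0.23. Nos1, the neuronal nitric oxide synthase gene of a small interneuron class, rose by 0.47, and the calbindin gene Calb1 was at -0.07, not called. Named after their values were seen, to complete the count of calls, Dlx2, a transcription factor gene of developing interneurons, rose by 0.58, and the peptide genes Crh and Cck fell by 0.47 and 0.26. Among receptor genes, the GABA-A subunit gene Gabrb2 fell by 0.92. After each panel was centred on its median, Vip was at -0.10 and Cck at -0.13, neither called. Under centring on the 3 housekeeping genes, which were higher in sum with P522R, 7 of the 27 rose and 13 fell.

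The direction of these genes went with the panel that measured them. Of the 16 on the panel of Gad1 and Gad2, 9 rose, 1 fell and 6 were not called in P522R_5xFAD against 5xFAD. Of the 11 on the panel of Abat and Calb2, 3 rose, 7 fell and 1 was not called. Over all genes the first panel had 330 rises and 154 falls and the second 183 rises and 161 falls. Which genes a panel holds and how it was scaled cannot be told apart between panels, and Slc32a1, Pvalb, Npy and Gabrb2 were still called lower after median centring within each panel, as Gad1 and Gad2 were still called higher.

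In M28L_5xFAD against 5xFAD, 1 of the 27 rose, 2 fell and 24 were not called, with a median of 0.01 against 0.00 over all genes. The share called over all genes was 10.3%. Slc32a1 rose by 0.17 (limma adjusted p = 0.0444). Pvalb was at 0.15, Vip at -0.04, Npy at 0.01 and Calb1 at -0.11, none called. After median centring within each panel Slc32a1 was at 0.07, not called. Centring on housekeeping genes gave 6 rises and 0 falls among the 27. In P522R_5xFAD against M28L_5xFAD, where 67.6% of all genes were called, 13 of the 27 rose, 7 fell and 7 were not called. Pvalb fell by 0.67 and Slc32a1 by 0.48 in P522R_5xFAD mice, and Slc12a5 rose by 0.79 and Slc12a2 by 0.59. Centring on housekeeping genes gave 3 rises and 16 falls there.

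**Figure D3:**
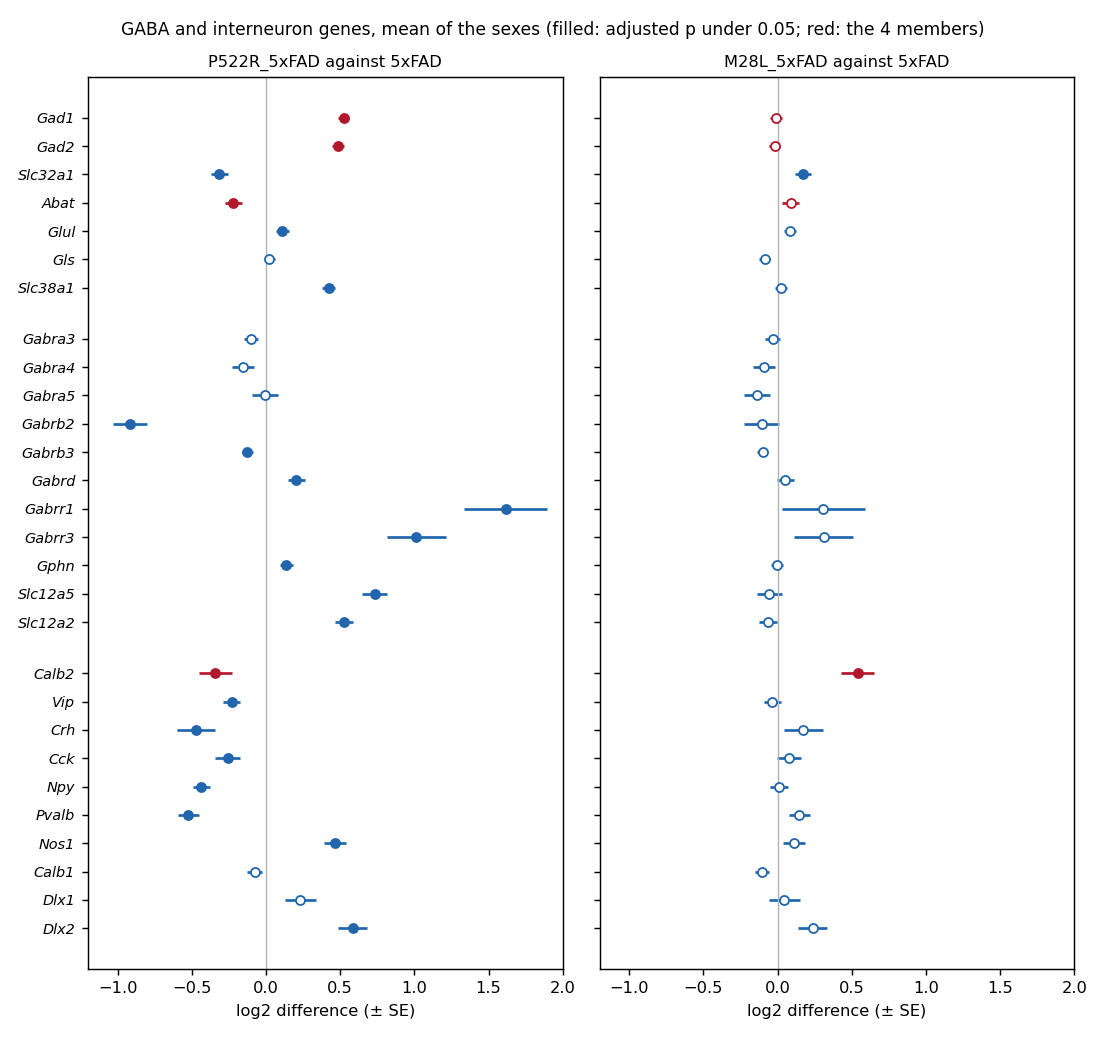
Log2 difference with its SE for 28 measured genes of the GABA and interneuron list, averaged over the sexes, in P522R_5xFAD against 5xFAD (left) and M28L_5xFAD against 5xFAD (right). Filled points have a limma adjusted p under 0.05 and red marks Gad1, Gad2, Abat and Calb2. With P522R 22 of 28 genes are filled, on both sides of 0, and with M28L 2 of 28.

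Genes of other neurons and of other cell types moved too in P522R_5xFAD against 5xFAD, where 65.4% of all genes were called, 513 higher and 315 lower. Several of the counts below lie near that share, and nothing is read from them about a list. Of 16 glutamatergic genes 10 rose and 5 fell, with Tbr1, a transcription factor of deep cortical layers, at 0.42 and the receptor gene Grin2b at -0.67. Of 10 general neuronal genes 6 rose and 2 fell, with the synapsin gene Syn1 at 0.49 and Map2 at -0.41. Of 5 genes of a list for the striatum, which lies under the cortex and is rich in GABA neurons, 3 rose and 1 fell, with Th at 0.83, Chat at 0.54 and Adora2a at -0.46. Their summed level ran from 1394.5 to 1715 normalized counts in females and 1928 to 2154 in males with P522R, against 1380 to 1765 in females and 2013 to 2138 in males of the 5xFAD group, so that it overlapped in each sex. Of 4 genes high in hippocampus or thalamus, Calb2 among them, 2 rose, among them Prkcd by 0.42, and 1 fell, Calb2 itself. All 4 oligodendrocyte precursor genes rose, with a median of 0.54. Of 7 astrocyte genes 4 rose and 1 fell, of 7 oligodendrocyte genes 3 rose and 1 fell, of 8 microglial genes 2 rose and 2 fell, and of 4 endothelial genes 2 fell. The part of these cell types and regions in the values of the 4 genes was not tested.

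Between females and males all 4 genes were lower in females, and so was most of the table. Averaged over the genotypes the difference, female minus male, was -0.34 for Gad1, -0.34 for Gad2, -0.73 for Abat and -0.66 for Calb2, all called, where 86.4% of genes were called. The median over all genes was -0.38, with -0.28 on the panel of Gad1 and Gad2 and -0.50 on that of Abat and Calb2. Within genotypes, 69.6% of genes were called with P522R, 69% with M28L and 72% in 5xFAD mice, and each of the 4 genes was called in each. After each mouse was centred on its median, the average was -0.01 for Gad1 and -0.02 for Gad2, neither called. The lower Abat of females was called under all 9 settings tried in the average, in M28L_5xFAD mice and in 5xFAD mice. With P522R it was -0.09 after median centring and 0.08 after median centring within each panel, not called. Calb2 in females was at -0.19 on average after median centring within each panel (limma adjusted p = 0.0501).

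**Figure D4:**
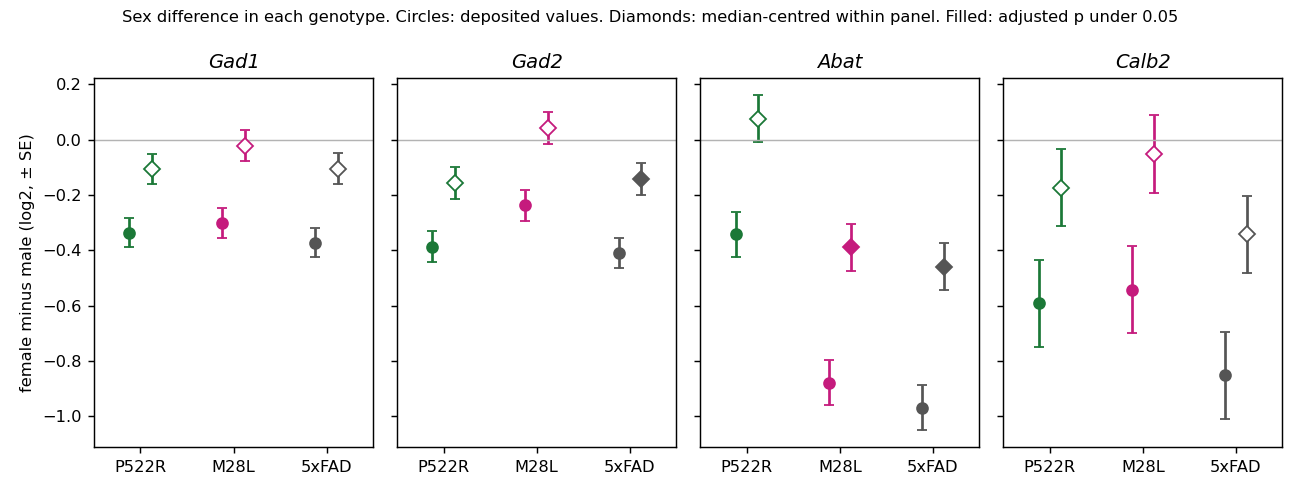
Female minus male log2 difference with its SE for each gene in each genotype, from the deposited values (circles) and after median centring within each panel (diamonds), filled where the limma adjusted p is under 0.05. From the deposited values all 12 differences are below 0 and called. After centring, Abat in M28L_5xFAD and 5xFAD mice and Gad2 in 5xFAD mice are still called.

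Mouse by mouse, within the 6 groups, the pair of synthesis genes and the other pair each varied together only in part. Over the deviations of 36 mice from their group means, Pearson's r was 0.41 between Gad1 and Gad2 and 0.58 between Abat and Calb2, while the 4 pairs across these ran from -0.28 to 0.00. Each of the correlated pairs shares a panel, and so a scaling constant per mouse. Among 1091 genes with a mean log2 of at least 5, Gad2 ranked 137th in likeness to Gad1. The genes most like Gad1 were the beta-secretase gene Bace1 (r = 0.76), the synaptic vesicle gene Syngr1 (0.74) and the adhesion gene Ncam1 (0.71). Those most like Gad2 were the protein kinase A regulatory gene Prkar1a (0.59), the cannabinoid receptor gene Cnr1 (0.57) and the protein kinase C gene Prkcq (0.56). Those most like Abat were Lclat1 (0.85), an acyltransferase gene of cardiolipin remodelling, the GTPase gene Rac1 (0.81) and the glutamate receptor gene Grin2b (0.81). Those most like Calb2 were Nol3 (0.63), the kinase gene Camk2b (0.61) and Slc32a1 (0.61). All 12 lie on the panel of the gene they resemble.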

How the data were processed

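Cortical RNA of 36 mice, each registered on both panels, was analysed. The authors deposited normalized log2 values, 1 column per mouse. RNA was extracted with a Purelink column kit, per the labels' protocols. The normalization was not given in the sources used here. Of 1517 entries, 251 named no gene and were left out. On the linear scale 100.0% of values were whole counts times 1 constant per mouse and panel, within 0.05 counts, which gave depth and panels.

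limma 3.58.1 under R 4.3.3 (lmFit, eBayes with trend) was fitted to the deposited log2 values of all 36 mice, with a mean for each genotype and sex, and two-sided p-values were adjusted over 1266 genes. The fit was tested on simulated data with known changes. Single genes were also tested by exact permutation of genotype within sex. Mice that shared an index number across groups were not more alike. The deviations of 22 same-index pairs correlated at -0.48 to 0.29, with a median of -0.07 against 0.00 for 182 other pairs. This cannot show what the index numbers stand for, which the labels do not give.

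The members and lists were chosen with earlier results of these data known. Named besides the members were 14 fixed GABA genes where measured, the 8 called list genes with the smallest p per genotype comparison, up to 3 per list of other neurons and regions, and the 3 genes most alike to each member. All 4 members were found by symbol in the RefSeq gene table of GRCm38.p6. Alternatives were other scalings, a filter at a mean log2 of 5, a pseudocount of 20, other variance models, array weights, sample subsets, an index block and leaving out each mouse; leaving out mice for the sex difference of Abat and for Calb2 within sex, and the settings within genotypes for females against males, were chosen after seeing the data. Plcg2 itself was not analysed here. A few genes that this rule names are not reported here; counts over the lists include them, and the plot of the GABA list and its counts leave them out.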

Additional observations from a re-analysis of the deposited data

Results flagged for a closer look

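Abat differed between the sexes in its response to P522R. The female minus male difference of the genotype effect was 0.63 against 5xFAD (limma adjusted p = 0.000176) and 0.54 against M28L_5xFAD (adjusted p = 0.000815), as tested by an interaction term. All 6 P522R_5xFAD males lay under the mean of the males set against them, in both comparisons, while 4 of 6 P522R_5xFAD females lay above the mean of 5xFAD females and 2 of 6 above that of M28L_5xFAD females.

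Of 24 groups of 6 mice examined for a mouse far from its group, 2 had one, and chance gives about 1 in 20. For Gad2, M28L_5xFAD male 10 stood at 11.58 on the log2 scale, with a gap to the next mouse of 0.744 of the group's range. For Abat, 5xFAD female 1190 stood at 10.1, with a gap of 0.691 of the range.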

How the results depend on the processing

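For the 4 genes in the genotype comparisons averaged over the sexes, leaving out each mouse in turn ended no call, turned none and made none. The cause of the changes below was not tested. The 3 housekeeping genes used for centring were themselves higher in sum with P522R, as given above. Median centring within each panel ended the calls of Abat in P522R_5xFAD against 5xFAD (-0.090, limma adjusted p = 0.184) and against M28L_5xFAD (-0.077, adjusted p = 0.253), and of Calb2 in P522R_5xFAD against 5xFAD (-0.21, adjusted p = 0.0565). Without a sex term, which leaves the sex difference in the spread, the differences kept their size and lost the call: Abat at -0.22 (adjusted p = 0.280) and -0.31 (adjusted p = 0.118) in the same comparisons, Calb2 at -0.34 (adjusted p = 0.105) with P522R and 0.54 (adjusted p = 0.100) with M28L, both against 5xFAD. With only M28L_5xFAD mice of index 1 to 3, Calb2 was at 0.41 (adjusted p = 0.0614). Genes called in M28L_5xFAD against 5xFAD numbered 130, and 311 after housekeeping centring, 30 without a sex term and 77 with index 1 to 3 only. With housekeeping centring, the all-gene median stood at -0.12, 0.13 and -0.24 in P522R_5xFAD against 5xFAD, M28L_5xFAD against 5xFAD and P522R_5xFAD against M28L_5xFAD, with 204 rises and 550 falls in place of 513 and 315, 272 and 39 in place of 59 and 71, and 119 and 707 in place of 525 and 331. Within sexes, housekeeping centring made Gad2 called in M28L_5xFAD against 5xFAD females (0.23) and Abat in P522R_5xFAD against M28L_5xFAD females (-0.35), array weights made Calb2 called in M28L_5xFAD against 5xFAD males (0.40), and median centring made the sex difference of the Gad2 effect called in P522R_5xFAD against M28L_5xFAD (-0.24). Of the female against male differences, some turned positive. Median centring gave 0.048 for Gad1 and 0.11 for Gad2 with M28L and 0.0092 for Gad1 in 5xFAD mice. Median centring within each panel gave 0.076 for Abat with P522R and 0.042 for Gad2 with M28L, where quantile normalization gave 0.0077 and housekeeping centring 0.025. With the index number as a replicate block no call of the 4 genes changed: Gad1 was at 0.52 and Calb2 at -0.32 in P522R_5xFAD against 5xFAD, and 765 genes were called there. Of 29 mice with a partner, 1 correlated best with its own index. Calb2, with as few as 86 counts in a mouse, had the largest standard error of the 4.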
